A study of Homo sapiens with 12 samples.

Results

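The 10 genes described here are transcription factors and a splicing factor that act on opposite sides of the epithelial to mesenchymal transition (EMT). The EMT inducers were SNAI1, SNAI2, TWIST1, TWIST2, ZEB1 and ZEB2, and the epithelial keepers were OVOL1, OVOL2, GRHL2 and ESRP1. They were chosen by symbol from an expression table of 56593 distinct symbols, and each of the 10 stood on a single line of it. Levels were measured by RNA-seq in 12 libraries: 3 of undifferentiated H1, a long-used human embryonic stem cell line, and 3 of each of 3 populations derived from them on the way to blood.

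In EMT, epithelial cells give up their junctions and polarity and gain the ability to migrate, and the first such event in the embryo is the formation of mesoderm. SNAI, TWIST and ZEB proteins bind E-box sequences and repress junction genes such as CDH1, which encodes E-cadherin. OVOL and GRHL2 proteins oppose them at the promoters of ZEB and junction genes, and ESRP1 keeps the epithelial splicing pattern. MicroRNAs of the miR-200 family hold down the ZEB messenger RNAs that they target, and ZEB proteins in turn repress the miR-200 genes.

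The differentiated populations all came from H1 cultures in Custom mTeSR1 medium, first with 40 ng/ml activin A and 50 ng/ml BMP4 for 2 days and then with 40 ng/ml VEGF and 50 ng/ml bFGF, per the labels. The methods text gives the activin A and BMP4 concentrations the other way round. APLNR+ mesoderm cells were collected at day 2, CD31+CD34+ hemogenic endothelial progenitors (HEPs) at day 5 and CD43+ hematopoietic progenitor cells (HPCs) at day 8, while H1 cells had no induction. All 12 libraries rest on 1 cell line, and the labels do not say whether libraries of a population came from separate cultures, while the methods text speaks in general of independent experiments. P-values then measure only the spread between these libraries, which may be technical. In bulk libraries, fewer cells of a type and less RNA per cell cannot be told apart.

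Transcripts of the sorted surface proteins were present in the populations named for them: APLNR stood at 359 to 402 FPKM in APLNR+ cells against 0.386 to 0.688 FPKM in H1, PECAM1 (CD31) at 50.9 to 59.0 FPKM in HEPs against 0.00147 to 0.155 FPKM in APLNR+ cells, and SPN (CD43) at 60.3 to 90.6 FPKM in HPCs against 2.84 to 4.20 FPKM in HEPs. APLNR stood as high in HEPs, at 403 ± 24.6 FPKM (SD, n = 3), and PECAM1 was higher in HPCs, at 82.6 to 104 FPKM. FPKM count fragments per length of transcript and per mapped total, so absolute depth is unknown. Relative depth, read from the spacing of the lowest values, ranged from 0.555 (HEP replicate 1) to 1.27 (HEP replicate 2) of HPC replicate 3, and replicate 1 was the shallowest library of each population. An exact 0 in this table can be a failed estimate: EEF1A1, needed for translation in any cell, has a 0 in 6 libraries and 1839 FPKM or more in the other 6. Among the 10 genes a 0 appeared for TWIST2 alone.

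Summed over the family, the inducers were nearly silent in H1 cells and the keepers were not. The 6 inducers together held 1.84, 2.24 and 1.89 FPKM in H1 replicates 1, 2 and 3, against 45.8, 52.9 and 50.9 FPKM for the 4 keepers. By day 2 the order was turned: in APLNR+ cells the inducers held 33.1, 41.2 and 40.9 FPKM and the keepers 12.7, 15.2 and 16.5 FPKM. In HEPs the inducers held 58.7, 63.9 and 59.4 FPKM and the keepers 7.01, 7.68 and 6.93 FPKM. In HPCs the inducers held 54.9, 65.2 and 65.4 FPKM and the keepers 1.73, 1.72 and 2.51 FPKM. The libraries of the 4 populations did not overlap in the keeper sum. In the inducer sum they overlapped between HEPs and HPCs only. The ratio of inducers to keepers averaged 0.0399 ± 0.00260 in H1, 2.60 ± 0.117 in APLNR+ cells, 8.43 ± 0.138 in HEPs and 32.0 ± 5.94 in HPCs (SD, n = 3). These sums describe chosen genes and were given no test. Without ZEB2 the inducer sum averaged 26.7 ± 2.95 FPKM in APLNR+ cells, 12.5 ± 1.97 FPKM in HEPs and 8.47 ± 2.08 FPKM in HPCs.

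**Figure D1:**
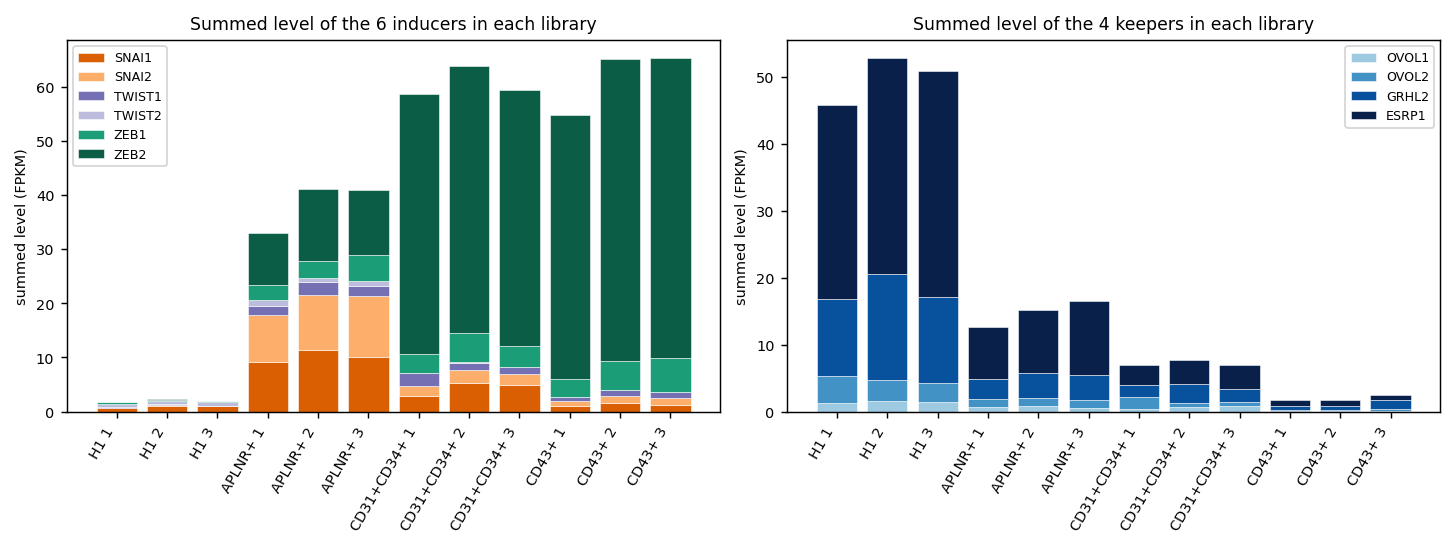
Stacked bars of the summed level in FPKM of the 6 inducers (left) and the 4 keepers (right) in each of the 12 libraries, with replicate numbers after the population. ZEB2 fills 29.4% to 32.2% of the inducer bar in APLNR+ libraries and 84.8% to 88.9% in CD43+ libraries, while the keeper bars shrink at every stage.

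The make-up of the inducer pool changed from stage to stage. In H1 cells SNAI1 held 43.6% ± 9.67 and TWIST2 32.8% ± 7.33 of the small inducer sum (SD, n = 3). In APLNR+ cells SNAI1, SNAI2 and ZEB2 held similar parts, at 26.8% ± 1.79, 26.1% ± 1.61 and 30.4% ± 1.63. ZEB2 then held 79.5% ± 2.31 in HEPs and 86.4% ± 2.18 in HPCs. The keeper pool was led by ESRP1 in H1 and APLNR+ cells, at 63.5% ± 2.62 and 63.7% ± 2.53, and by ESRP1 and GRHL2 together in HPCs, at 44.4% ± 10.4 and 41.6% ± 10.2.

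SNAI1 (Snail), a zinc finger repressor of CDH1 that acts in gastrulation, was highest in mesoderm. Its level in replicates 1, 2 and 3 was 0.596, 1.09 and 0.940 FPKM in H1 cells and 9.19, 11.5 and 10.1 FPKM in APLNR+ cells. It was 2.89, 5.25 and 4.92 FPKM in HEPs and 0.979, 1.55 and 1.16 FPKM in HPCs. APLNR+ libraries were all above those of every other population, HEP libraries came next, and H1 and HPC libraries overlapped. On the scale of log2(FPKM + 1), which understates the change of low genes, SNAI1 rose by 2.59 ± 0.18 from H1 to APLNR+ (SE, limma adjusted p 1.45e-07). It fell by 1.10 ± 0.18 to HEPs (limma adjusted p 0.000147) and by 1.24 ± 0.18 to HPCs (limma adjusted p 0.000103). Replicate 1 of HEPs, the shallowest library, was the lowest of its population, and without it the step from APLNR+ to HEPs was -0.88, short of 2-fold. HPCs differed from H1 by 0.25 ± 0.18 (limma adjusted p 0.223).

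SNAI2 (Slug), the paralog of SNAI1 that is known from neural crest and mesoderm, had its highest level in the same population. H1 libraries stood at 0.111, 0.197 and 0.0910 FPKM and APLNR+ libraries at 8.58, 10.1 and 11.4 FPKM. HEP libraries stood at 1.76, 2.37 and 1.98 FPKM and HPC libraries at 0.937, 1.27 and 1.26 FPKM. No pair of populations overlapped, and the order was APLNR+, HEPs, HPCs, H1. SNAI2 rose by 3.28 ± 0.12 from H1 to APLNR+ (limma adjusted p 4.09e-10) and fell by 1.86 ± 0.12 to HEPs (limma adjusted p 4.81e-08). From HEPs to HPCs its log2(FPKM + 1) change was -0.50 ± 0.12 (limma adjusted p 0.00382) and from H1 to HPCs 0.92 ± 0.12 (limma adjusted p 1.54e-05). Both were short of 2-fold on that scale. As ratios of mean FPKM they were a 1.77-fold fall and an 8.69-fold rise.

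TWIST1, a basic helix-loop-helix factor of mesoderm and neural crest, had a lower mean than the SNAI genes in every population and no called fall after day 2. Its level was 0.0456, 0.0847 and 0.0400 FPKM in H1 cells and 1.71, 2.37 and 1.70 FPKM in APLNR+ cells. In HEPs it was 2.38, 1.27 and 1.26 FPKM and in HPCs 0.763, 1.19 and 1.28 FPKM. H1 libraries were below all others, while HEP libraries overlapped both APLNR+ and HPC libraries. APLNR+ libraries were all above HPC libraries, and that log2 change was -0.49 ± 0.16 (limma adjusted p 0.0146), short of 2-fold. The 2.38 FPKM of HEP replicate 1, the shallowest library, stood apart from the other HEP values. TWIST1 rose by 1.46 ± 0.16 from H1 to APLNR+ (limma adjusted p 9.09e-06), and the later steps of -0.17 ± 0.16 and -0.32 ± 0.16 did not pass the test (limma adjusted p 0.355 and 0.108). From H1 to HPCs the log2(FPKM + 1) change of TWIST1 was 0.97 ± 0.16 (limma adjusted p 0.000144), just short of 2-fold on that scale. Without HPC replicate 1 it was 1.08 and called. As a ratio of mean FPKM the rise from H1 to HPCs was 19.0-fold.

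TWIST2, its paralog, never reached the minimum of 1 FPKM in 3 libraries and entered no fit. Its level was 0.700, 0.547 and 0.680 FPKM in H1 cells and 1.14, 0.801 and 0.949 FPKM in APLNR+ cells. It was 0.122, 0.185 and 0.0779 FPKM in HEPs, and in HPCs it was listed at 0 in replicates 1 and 3 and at 0.0187 FPKM in replicate 2. TWIST2 was the only inducer at a higher level in H1 cells than in HEPs and HPCs. APLNR+ libraries were all above H1 libraries, which were all above HEP libraries, and each of these differences had an exact two-sided permutation p of 0.1, the smallest that 3 against 3 libraries can give.

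ZEB1, a zinc finger and homeodomain repressor of CDH1 and of the miR-200 genes, reached one level by day 2 and was measured near it afterwards. It stood at 0.215, 0.230 and 0.117 FPKM in H1 cells and at 2.74, 3.16 and 4.76 FPKM in APLNR+ cells. HEP libraries held 3.54, 5.52 and 3.94 FPKM and HPC libraries 3.41, 5.31 and 6.27 FPKM. The differentiated populations overlapped one another and none overlapped H1. ZEB1 rose by 1.92 ± 0.21 from H1 to APLNR+ (limma adjusted p 7.35e-06). The changes of 0.23 ± 0.21 to HEPs and 0.16 ± 0.21 on to HPCs did not pass (limma adjusted p 0.318 and 0.547).

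ZEB2, the paralog of ZEB1 that is also used in neural crest and blood development, was the one inducer with a further rise after day 2. Its level was 0.171, 0.0920 and 0.0231 FPKM in H1 cells and 9.75, 13.3 and 12 FPKM in APLNR+ cells. It was 48.0, 49.3 and 47.3 FPKM in HEPs and 48.8, 55.8 and 55.5 FPKM in HPCs, where the libraries overlapped those of HEPs. ZEB2 rose by 3.53 ± 0.11 from H1 to APLNR+ (limma adjusted p 1.12e-10) and by 1.96 ± 0.11 to HEPs (limma adjusted p 1.62e-08). The step from HEPs to HPCs was 0.14 ± 0.11 (limma adjusted p 0.296). From H1 to HPCs the change was 5.63 ± 0.11 (limma adjusted p 1.41e-12).

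OVOL1, a zinc finger factor of epidermis, had the lowest mean of the keepers in every population, though in HEP replicates 2 and 3 it was above OVOL2. It stood at 1.31, 1.54 and 1.49 FPKM in H1 cells and at 0.606, 0.886 and 0.517 FPKM in APLNR+ cells. HEP libraries held 0.387, 0.640 and 0.752 FPKM and HPC libraries 0.119, 0.0578 and 0.105 FPKM. H1 libraries were above all others, HPC libraries were below all others, and APLNR+ and HEP libraries overlapped. None of the consecutive steps reached 2-fold on the log2(FPKM + 1) scale (-0.56 ± 0.11, -0.07 ± 0.11 and -0.54 ± 0.11), and the second of them turned to 0.037 under quantile normalization. As ratios of mean FPKM the steps were falls of 2.16-fold, 1.13-fold and 6.32-fold. Over the whole course OVOL1 fell by 1.16 ± 0.11 (limma adjusted p 8.09e-07). It was at 1 FPKM or more in the 3 H1 libraries and in no other, so it passed the minimum through H1 alone and a difference from H1 was partly fixed by that minimum.

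OVOL2, which is known to repress ZEB1, stood at 3.93, 3.24 and 2.77 FPKM in H1 cells and at 1.26, 1.20 and 1.25 FPKM in APLNR+ cells. In HEPs it stood at 1.83, 0.600 and 0.628 FPKM and in HPCs at 0.159, 0.131 and 0.269 FPKM. HEP replicate 1 was above every APLNR+ library and the other HEP libraries were below them all. The step from H1 to APLNR+ was -0.94 ± 0.19 (limma adjusted p 0.001) and that from HEPs to HPCs -0.72 ± 0.19 (limma adjusted p 0.00645). Each was short of 2-fold on the log2(FPKM + 1) scale, though the first was -1.03 and called without H1 replicate 3. As ratios of mean FPKM these falls were 2.68-fold and 5.47-fold. From H1 to HPCs OVOL2 fell by 1.86 ± 0.19 (limma adjusted p 1.74e-06).

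GRHL2, a grainyhead factor that activates CDH1 and claudin genes, had its one called consecutive fall at the first step. Its level was 11.6, 15.8 and 12.9 FPKM in H1 cells and 2.97, 3.60 and 3.76 FPKM in APLNR+ cells. It was 1.77, 2.89 and 2.05 FPKM in HEPs and 0.565, 0.677 and 1.32 FPKM in HPCs. The 4 populations did not overlap. GRHL2 fell by 1.69 ± 0.17 from H1 to APLNR+ (limma adjusted p 5.25e-06). The later steps of -0.47 ± 0.17 and -0.81 ± 0.17 passed the adjusted p (0.0292 and 0.00193 by limma) but not the 2-fold minimum on the log2(FPKM + 1) scale. As ratios of mean FPKM these later falls were 1.54-fold and 2.62-fold.

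ESRP1, an RNA-binding protein that sets epithelial exon choice in FGFR2 and CD44, was the highest keeper in H1 cells and fell at each step. Its level was 28.9, 32.3 and 33.8 FPKM in H1 cells and 7.83, 9.52 and 11 FPKM in APLNR+ cells. It was 3.02, 3.55 and 3.50 FPKM in HEPs and 0.885, 0.849 and 0.811 FPKM in HPCs, with no overlap between any populations. ESRP1 fell by 1.65 ± 0.12 to APLNR+, by 1.25 ± 0.12 to HEPs and by 1.23 ± 0.12 to HPCs (limma adjusted p 1.62e-07, 1.17e-06 and 2.68e-06). As ratios of mean FPKM these falls were 3.35-fold, 2.81-fold and 3.95-fold, and differences between the steps were not tested. Mean ESRP1 in HPCs was 37.3-fold below that in H1.

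**Figure D2:**
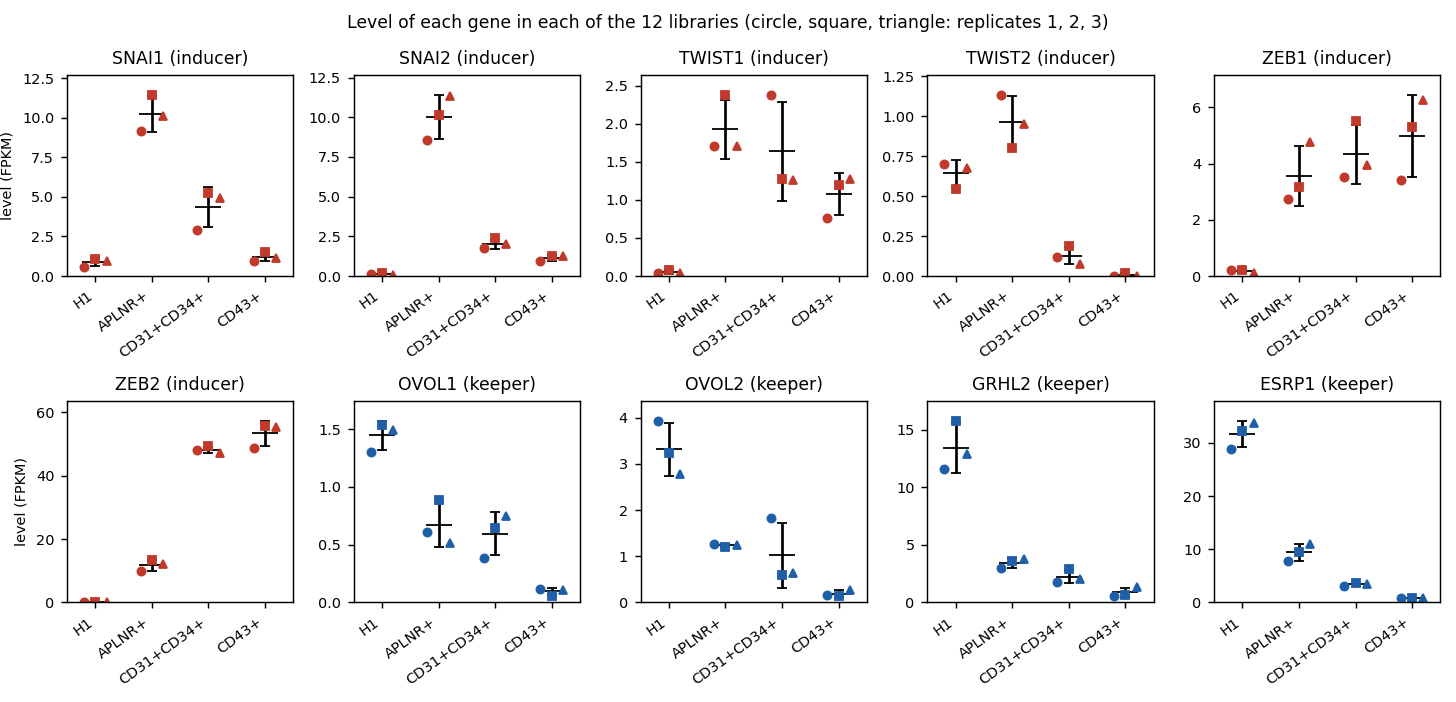
Level in FPKM of each of the 10 genes in each library, 1 panel a gene with its own linear axis from 0; points are the 3 libraries of a population and the bars show mean ± SD. SNAI1, SNAI2 and TWIST2 peak in APLNR+ cells, ZEB2 is at 47.3 to 55.8 FPKM in both CD31+CD34+ and CD43+ cells, and the keepers have their highest libraries in H1.

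A gene was called when its limma adjusted p was under 0.05 and its change at least 2-fold, and 9 of the 10 genes were tested. From H1 to APLNR+ 5 inducers were called raised (SNAI1, SNAI2, TWIST1, ZEB1 and ZEB2), where 8.3% of all 14840 tested genes were called raised. On that step 2 keepers were called lowered (GRHL2 and ESRP1), against 7.62% of all genes. SNAI2, TWIST1, ZEB1 and ZEB2 had no H1 library at 1 FPKM and passed the minimum through the later populations alone, so a difference from H1 was partly fixed by that minimum. From APLNR+ to HEPs ZEB2 was called raised (12.5% of all genes were), and SNAI1, SNAI2 and ESRP1 were called lowered (17.1% were). From HEPs to HPCs no gene of the 10 was called raised (5.58% of all genes were) and SNAI1 and ESRP1 were called lowered (8.79% were). Over the whole course from H1 to HPCs, ZEB1 and ZEB2 were called raised (14.6% of all genes were) and all 4 keepers were called lowered (22.5% were). Leaving out any H1 library took OVOL1 below the minimum and left 3 keepers called. At an adjusted p under 0.05 with no minimum change, 4 inducers were raised from H1 to HPCs, with SNAI2 and TWIST1 beside the ZEB genes. From HEPs to HPCs 6 of the 10 genes were lowered under that rule, namely SNAI1, SNAI2 and the 4 keepers.

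**Figure D3:**
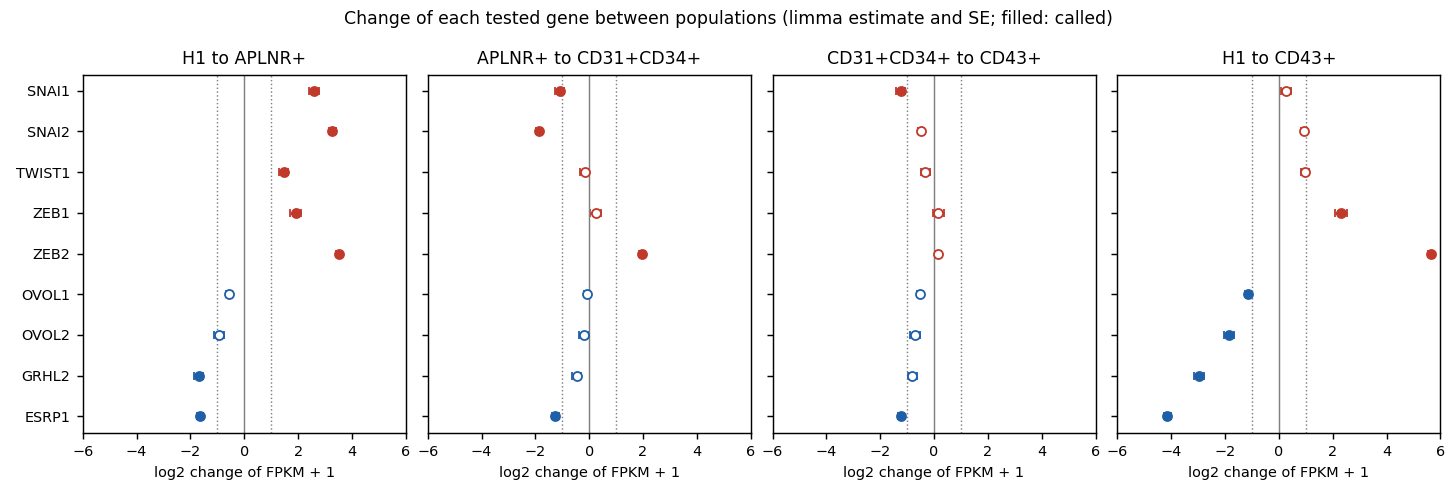
Change of the 9 tested genes on the log2(FPKM + 1) scale with its SE, 1 panel a comparison; red marks inducers, blue marks keepers, filled points were called and dotted lines mark 2-fold. The inducers lie right of 0 in the first panel and then spread, with ZEB2 at 1.96 and SNAI2 at -1.86 in the second, while the keepers lie left of 0 in all 4 panels, OVOL1 in the second at -0.07 and, under quantile normalization, at 0.037.

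The skipped-stage comparisons place the middle populations. Between H1 and HEPs all 5 tested inducers were called raised, from 1.29 for TWIST1 to 5.49 for ZEB2 (16.9% of all genes were raised), and OVOL2, GRHL2 and ESRP1 were called lowered (23.2% were). Between APLNR+ cells and HPCs ZEB2 was raised by 2.11 ± 0.11 (14.1% of all genes were raised). SNAI1 fell by 2.34 ± 0.18, SNAI2 by 2.35 ± 0.12, GRHL2 by 1.28 ± 0.17 and ESRP1 by 2.49 ± 0.12 between these populations (19.4% of all genes were lowered; limma adjusted p from 2.03e-09 to 2.95e-05). In the order of its levels, ZEB1 thus separated only H1 from the rest, and TWIST1 had no called pair among the differentiated populations.

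The paralogs of each pair were next compared within libraries, where a scaling of the whole library cancels apart from the pseudocount. Log2 of ZEB2 over ZEB1, each as FPKM + 1, averaged -0.12 ± 0.06 in H1, 1.49 ± 0.30 in APLNR+ cells, 3.22 ± 0.25 in HEPs and 3.21 ± 0.27 in HPCs (SD, n = 3). As plain FPKM, ZEB2 was 2.52 to 4.21 times ZEB1 in APLNR+ libraries and 8.85 to 14.3 times in HPC libraries. The ratio differed between H1 and APLNR+ and between APLNR+ and HEPs without overlap (exact two-sided permutation p = 0.1 each, the smallest possible here) and overlapped between HEPs and HPCs (exact permutation p = 1). Log2 of SNAI1 over SNAI2, each as FPKM + 1, averaged 0.72 ± 0.17 in H1, 0.03 ± 0.17 in APLNR+ cells, 0.79 ± 0.26 in HEPs and 0.04 ± 0.12 in HPCs. As plain FPKM, SNAI1 was 5.39 to 10.3 times SNAI2 in H1 libraries and 1.64 to 2.48 times in HEP libraries, so the like log2 values of H1 and HEPs rest on the pseudocount, and with one of 0.1 the first change was -2.02. The 2 genes stood side by side in APLNR+ cells and HPCs. Each of the 3 consecutive changes of the SNAI ratio came without overlap (exact two-sided permutation p = 0.1 each).

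Over the 12 libraries the tested genes fell into groups by the shape of their courses. SNAI1 and SNAI2 had a Pearson r of 0.948, ZEB1 and ZEB2 one of 0.948, and the keepers ranged from 0.870 (OVOL1 with OVOL2) to 0.969 (GRHL2 with ESRP1). ZEB2 ran opposite to GRHL2 (r = -0.951) and ESRP1 (r = -0.946). SNAI1 was close to unrelated to ESRP1 (r = -0.03) and to OVOL1 (r = -0.04), with low SNAI1 levels at both ends of the course. These values describe 12 libraries that form 4 clusters, and the points of a population share a stage, so no test was made.

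**Figure D4:**
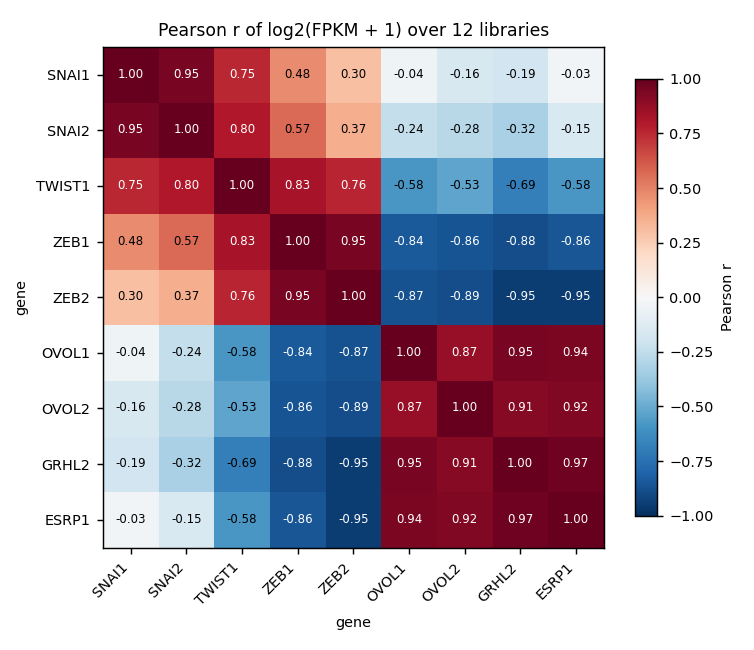
Pearson r of log2(FPKM + 1) between each pair of the 9 tested genes over the 12 libraries, as colour and number. The SNAI pair and the ZEB pair each stand at 0.95, the keepers at 0.87 to 0.97 with one another, and ZEB2 at -0.87 to -0.95 with the keepers.

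The genes whose courses were most like each member, by Pearson r over the 12 libraries among all tested genes, were as follows. For ESRP1 the nearest gene was CDH1 itself (r = 0.996), then AP1M2, a subunit of the epithelial clathrin adaptor (r = 0.996), and ERRFI1 (r = 0.994). For GRHL2 it was the pluripotency factor gene NANOG (r = 0.994), then GALNT7 (r = 0.991) and DLGAP1-AS2 (r = 0.990). SNAI2 had SERPINB9 (r = 0.994) and MORC4 (r = 0.993) among its nearest genes. SNAI1 ran closest to GPR37 (r = 0.991), GNE (r = 0.990) and RBM24 (r = 0.989). ZEB2 ran closest to PPP1R15A (r = 0.995), the mesoderm factor gene HAND2 (r = 0.994) and TAGLN2 (r = 0.994). ZEB1 ran closest to LEF1, a transcription factor of Wnt signalling (r = 0.986), VEGFB (r = 0.978) and KEL (r = 0.977). TWIST1 had the weakest best match, CALM3 (r = 0.958), followed by PDE10A and RTL5 (r = 0.957 each). OVOL1 ran closest to ADD2 (r = 0.986), ANOS1 (r = 0.976) and PJA1 (r = 0.974), and OVOL2 to PIP5KL1 (r = 0.986), MPP2 (r = 0.971) and GPRIN1 (r = 0.968).

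CDH1, the target by which EMT inducers are usually read, fell at every step. Its level was 31.2, 36.8 and 35.0 FPKM in H1 cells and 12.1, 12.8 and 12.2 FPKM in APLNR+ cells. It was 3.96, 5.21 and 4.71 FPKM in HEPs and 1.45, 1.68 and 1.92 FPKM in HPCs, with no overlap between populations. CDH1 fell by 1.40 ± 0.11 to APLNR+, by 1.25 ± 0.11 to HEPs and by 1.07 ± 0.11 to HPCs (limma adjusted p 3.94e-07, 6.40e-07 and 5.23e-06). The last of these falls came while SNAI1 was also falling and ZEB1 and ZEB2 did not pass the test.

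Of a list of 45 epithelial targets of SNAI, ZEB, GRHL2 or ESRP1, 42 were tested. From H1 to APLNR+ 18 were lowered and 2 raised (42.9% and 4.76%, against 7.62% and 8.3% of all genes), with a median log2 change of -0.61 against -0.12 over all tested genes. MAL2, a sorting protein of apical membranes, fell by 2.66 ± 0.16 and the claudin gene CLDN7 by 2.06 ± 0.13 (limma adjusted p 3.75e-08 and 4.19e-08). From APLNR+ to HEPs 8 were lowered (19%, near the 17.1% of all genes) and 2 raised (median -0.32 against -0.01), and the polarity gene PATJ fell by 1.79 ± 0.18 and the desmosomal cadherin gene DSG2 by 1.58 ± 0.09 (limma adjusted p 2.38e-06 and 2.37e-08). The 2 raised on that step were 4.76%, against 12.5% of all genes. From HEPs to HPCs 23 were lowered (54.8% against 8.79% of all genes) and none raised (median -1.06 against -0.0049). Over the whole course 33 were lowered (78.6% against 22.5% of all genes) and none raised, with a median of -1.67 against -0.10. The log2 changes were -4.45 ± 0.09 for EPHA1, -4.40 ± 0.10 for AP1M2 and -4.24 ± 0.11 for CLDN6 (limma adjusted p 2.09e-12, 3.86e-12 and 1.61e-11).

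Keratin genes of simple epithelia did not move as one. KRT8 stood at 158, 152 and 145 FPKM in H1 cells, 470, 492 and 424 FPKM in APLNR+ cells, 639, 709 and 613 FPKM in HEPs and 51.4, 71.1 and 58.9 FPKM in HPCs. It rose by 1.60 ± 0.12 from H1 to APLNR+ (limma adjusted p 2.20e-07) and fell by 3.42 ± 0.12 from HEPs to HPCs (limma adjusted p 5.22e-10). KRT19 rose by 1.47 ± 0.17 at the first step and fell by 2.53 ± 0.17 at the last (limma adjusted p 1.40e-05 and 1.43e-07), with -0.30 ± 0.17 between them (limma adjusted p 0.131). KRT7 went the way of the keepers at the first step, from 5.62 to 6.29 FPKM in H1 to 0.737 to 1.39 FPKM in APLNR+ cells, and fell by 1.81 ± 0.19 (limma adjusted p 7.23e-06). KRT7 reached the minimum only with the H1 libraries, so this fall was partly fixed by it. In HEPs, where the keeper sum was 6.93 to 7.68 FPKM, every KRT8 library was above every H1 library.

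Of 24 mesenchymal genes 23 were tested. From H1 to APLNR+ 15 were raised and 1 lowered (median log2 change 2.03 against -0.12 over all tested genes): the collagen gene COL5A2 rose by 4.84 ± 0.14, the cadherin gene CDH11 by 3.96 ± 0.11 and the intermediate filament gene VIM by 3.48 ± 0.16 (limma adjusted p 5.62e-11, 3.88e-11 and 2.68e-09). From APLNR+ to HEPs 11 were raised (47.8% against 12.5% of all genes) and 5 lowered (21.7% against 17.1%), with a median of 0.97 against -0.01. COL3A1 and S100A4 rose on that step by 4.07 ± 0.15 and 3.69 ± 0.08 (limma adjusted p 4.43e-10 and 1.33e-11). COL3A1 was at 1 FPKM in no H1 or APLNR+ library, so its rise was partly fixed by the minimum. From HEPs to HPCs 2 were raised and 16 lowered (median -1.67 against -0.0049), and the contractile gene TAGLN fell by 4.04 ± 0.15, COL5A2 by 3.26 ± 0.14 and the fibronectin gene FN1 by 2.53 ± 0.09 (limma adjusted p 1.14e-09, 3.01e-09 and 6.26e-10). Between H1 and HPCs 12 were raised and 3 lowered (median 1.29 against -0.10), or 52.2% and 13% against 14.6% and 22.5% of all genes. At the first step the raised and lowered were 65.2% and 4.35%, against 8.3% and 7.62% of all genes. At the step from HEPs to HPCs they were 8.7% and 69.6%, against 5.58% and 8.79%. At the step into HPCs 23 of 42 epithelial targets and 16 of 23 mesenchymal genes were thus called lowered, and ZEB2 stood at 48.8 to 55.8 FPKM in HPCs.

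Other EMT-promoting transcription factors were 18 symbols, of which 11 were tested. From H1 to APLNR+ 5 were raised and 1 lowered, and GSC, the organizer homeobox gene, rose by 4.38 ± 0.11, LEF1 by 2.86 ± 0.20 and KLF8 by 2.53 ± 0.20 (limma adjusted p 2.08e-11, 1.85e-07 and 5.46e-07). From APLNR+ to HEPs none was raised and 3 were lowered, and GSC fell by 4.27 ± 0.11, TCF4 by 1.64 ± 0.33 and KLF8 by 1.13 ± 0.20 (limma adjusted p 2.78e-11, 0.000674 and 0.000312). From HEPs to HPCs none was raised and 3 were lowered. The 5 and 1 of the first step were 45.5% and 9.09%, against 8.3% and 7.62% of all genes. The 3 lowered were 27.3% at each later step, against 17.1% and 8.79%. From H1 to HPCs 1 was raised and 2 were lowered (9.09% and 18.2%, against 14.6% and 22.5% of all genes). GSC was at 1 FPKM in APLNR+ libraries alone and LEF1 in no H1 library, so their rise from H1 and the fall of GSC to HEPs were partly fixed by the minimum. KLF8 was shaped like SNAI1, at 10.5, 13.8 and 13.6 FPKM in APLNR+ cells against 0.877 to 1.66 FPKM in H1 and 0.878 to 1.20 FPKM in HPCs. LEF1 was shaped like ZEB1, at 0.111 to 0.243 FPKM in H1 and 5.97 to 10.5 FPKM over the 9 differentiated libraries.

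SNAI3, the third gene of the SNAI family, was singled out after its values were seen, because it ran the other way. It stood at 3.43, 2.89 and 2.80 FPKM in H1 cells and at 0.0809, 0.197 and 0.0490 FPKM in APLNR+ cells. HEP libraries held 0.136, 0.243 and 0.358 FPKM and HPC libraries 1.17, 1.47 and 1.58 FPKM. SNAI3 fell by 1.86 ± 0.11 from H1 to APLNR+ (limma adjusted p 2.20e-08), where SNAI1 and SNAI2 rose. Its step of 0.95 ± 0.11 from HEPs to HPCs was short of 2-fold on the log2(FPKM + 1) scale (limma adjusted p 1.12e-05). SNAI3 was at 1 FPKM in H1 and HPC libraries alone, so these changes were partly fixed by the minimum. SNAI3-AS1 is, by its name, antisense to SNAI3, and without strand in the counting, which is not stated here, reads of such a pair cannot be told apart. It rose by 1.23 ± 0.14 from APLNR+ to HEPs (limma adjusted p 5.15e-06) and stood at 2.64 to 2.72 FPKM in H1.

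Paralogs and kin of the keepers did not move as one. Of 15 symbols 9 were tested. From H1 to APLNR+ 6 were raised and 1 was lowered, from APLNR+ to HEPs 1 was raised and 2 were lowered, from HEPs to HPCs none was raised and 2 were lowered, and from H1 to HPCs 1 was raised and 2 were lowered. The 6 raised and 1 lowered at the first step were 66.7% and 11.1% of those tested, against 8.3% and 7.62% of all genes. The 1 and 2 of the second were 11.1% and 22.2%, against 12.5% and 17.1%. The 2 lowered at the third were 22.2% against 8.79%, and the 1 and 2 over the course were 11.1% and 22.2% against 14.6% and 22.5%. ESRP2, the paralog of ESRP1, went the same way as ESRP1: it averaged 7.02 ± 0.328 FPKM in H1, 2.83 ± 0.272 in APLNR+ cells, 1.73 ± 0.356 in HEPs and 0.697 ± 0.201 in HPCs, and fell by 2.25 ± 0.12 over the course (limma adjusted p 6.21e-09). KLF5 rose by 2.38 ± 0.19 and TFAP2C by 1.90 ± 0.10 from H1 to APLNR+ (limma adjusted p 5.55e-07 and 1.35e-08), and KLF5 fell again by 2.08 ± 0.19 to HEPs (limma adjusted p 1.11e-06). KLF5 was at 1 FPKM in the APLNR+ libraries alone and TFAP2C in no H1 library, so these changes were partly fixed by the minimum. GRHL3, named after its values were seen, had 1.71, 1.51 and 1.92 FPKM in APLNR+ cells, all above its H1 values of 0.172 to 0.419 FPKM, on the step at which GRHL2 fell. GRHL3 too was at 1 FPKM in the APLNR+ libraries alone, so this difference was partly fixed by the minimum.

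Splicing factors that act beside or against ESRP proteins were all tested, 19 of 19. From H1 to APLNR+ 2 were raised and 2 lowered, from APLNR+ to HEPs 3 and 4, from HEPs to HPCs 1 and 3, and from H1 to HPCs 3 and 8. The 2 and 2 of the first step were 10.5% each, near the 8.3% and 7.62% of all genes. The 3 and 4 of the second step were 15.8% and 21.1%, near the 12.5% and 17.1% of all genes. The 1 and 3 of the third were 5.26% and 15.8%, against 5.58% and 8.79%. Over the course the 3 raised were 15.8% against 14.6%, and the 8 lowered were 42.1% against 22.5%. RBM47, an RNA-binding protein of epithelial splicing, stood at 22.3, 25.6 and 25.4 FPKM in H1 cells and at 3.84, 4.05 and 2.92 FPKM in APLNR+ cells, and fell by 2.47 ± 0.15 (limma adjusted p 4.11e-08). RBM24 rose by 2.49 ± 0.17 on that step (limma adjusted p 9.95e-08), and it was at 1 FPKM in no H1 library, so its rise was partly fixed by the minimum. RBFOX2, another splicing factor of this list, was at 23.5 to 27.6 FPKM in H1 cells already and at 24.3 to 35.0 FPKM in HEPs. It fell by 1.18 ± 0.16 from HEPs to HPCs (limma adjusted p 4.99e-05).

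Of 19 corepressors of SNAI and ZEB, all tested, 1 was raised and 1 lowered from H1 to APLNR+, 1 and 3 from APLNR+ to HEPs, none and 3 from HEPs to HPCs, and none and 3 from H1 to HPCs. The 1 raised and 1 lowered of the first step were 5.26% each, against 8.3% and 7.62% of all genes, and the 1 raised at the second was 5.26% against 12.5%. The 3 lowered on each of the other comparisons were 15.8%, against 17.1%, 8.79% and 22.5% of all genes in that order. CTBP2, through which ZEB proteins repress, fell by 1.08 ± 0.08 at the first step (limma adjusted p 4.25e-07), and HDAC2 fell by 1.81 ± 0.09 from APLNR+ to HEPs (limma adjusted p 9.01e-09). CTBP1, the paralog of CTBP2 and named after its values were seen, was the 1 raised from APLNR+ to HEPs, by 1.03 ± 0.17 (limma adjusted p 0.000195). Of 23 genes of SNAI turnover and modification 20 were tested, and 2 were raised and none lowered from H1 to APLNR+, 2 and 5 from APLNR+ to HEPs, none and 1 from HEPs to HPCs, and 2 and 5 from H1 to HPCs. The 2 raised at the first step were 10%, against 8.3% of all genes. The 2 and 5 of the second step were 10% and 25%, against 12.5% and 17.1% of all genes. The 1 lowered at the third was 5% against 8.79%, and the 2 and 5 over the course were 10% and 25% against 14.6% and 22.5%. PRKD1, a kinase of SNAI1, was shaped like it: 7.88, 8.00 and 8.97 FPKM in APLNR+ cells against 0.919 to 1.33 FPKM in H1 and 1.04 to 1.26 FPKM in HPCs, with a first rise of 2.09 ± 0.11 (limma adjusted p 1.57e-08).

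The antisense RNAs of ZEB1 and ZEB2 were low. ZEB1-AS1 was not called in any of the 4 comparisons and held 0.381 to 2.35 FPKM over the 12 libraries. ZEB2-AS1 did not reach the minimum, was listed at 0 in the 3 H1 libraries and was at 0.0495 to 0.459 FPKM elsewhere. Of the list of 6 antisense and divergent RNAs 2 were tested, and of these SNAI3-AS1 alone was called. SNAI3 is not one of the 10 genes, and SNAI3-AS1 stood higher, at 9.74 to 11.9 FPKM in HEPs. It was raised from APLNR+ to HEPs and from H1 to HPCs (50% of those tested, against 12.5% and 14.6% of all genes).

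The microRNA arm of the ZEB loop could be read only through host transcripts, because all 10 hairpin entries of the list, miR-200 family included, were listed at 0 in every library. Of 13 symbols 3 were tested: 1 was lowered from H1 to APLNR+ (7.62% of all genes were), none was called from APLNR+ to HEPs, 1 was lowered from HEPs to HPCs (8.79% were) and 2 from H1 to HPCs (22.5% were). MIR200CHG, the host gene of miR-200c and miR-141, stood at 6.94, 4.56 and 5.04 FPKM in H1 cells and at 1.65, 0.621 and 0.324 FPKM in APLNR+ cells. It held 1.39, 0.942 and 0.556 FPKM in HEPs, and in HPCs it was listed at 0 in 2 libraries and at 0.326 FPKM in replicate 2. H1 libraries were above all others. MIR200CHG fell by 1.85 ± 0.25 from H1 to APLNR+ (limma adjusted p 4.55e-05), the step at which ZEB1 and ZEB2 rose, and by 2.55 ± 0.25 over the course (limma adjusted p 1.17e-06). It reached the minimum only with the H1 libraries, so these falls were partly fixed by it. MIR205HG did not fall at that first step, with 6.59 to 6.88 FPKM in H1, 8.25 to 9.94 in APLNR+ cells and 6.28 to 8.44 in HEPs. Its log2 change there was 0.42 ± 0.13 (limma adjusted p 0.0146), short of 2-fold. It fell by 1.85 ± 0.13 from HEPs to HPCs (limma adjusted p 1.83e-07), where the ZEB genes were not called.

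The sequences behind that loop are shown to let its pairing be read. The mature microRNAs of the family form 2 groups by seed, bases 2 to 8, given in capitals (RefSeq, GRCh38.p14). The AAUACUG group holds 3 and the AACACUG group 2 of them. Those on chromosome 1 lie close together, as do those on chromosome 12, all on the plus strand.
hsa-miR-200b-3p, chr1:1167160-1167181: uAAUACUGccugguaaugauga
hsa-miR-200c-3p, chr12:6963742-6963764: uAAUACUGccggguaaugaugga
hsa-miR-429, chr1:1169055-1169076: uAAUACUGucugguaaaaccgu
hsa-miR-200a-3p, chr1:1167916-1167937: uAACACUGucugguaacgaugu
hsa-miR-141-3p, chr12:6964155-6964176: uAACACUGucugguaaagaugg

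Matches to these seeds were counted in the longest annotated 3′ untranslated region of each protein-coding gene (GENCODE 29, GRCh38). The letters searched were CAGTATT for the first group and CAGTGTT for the second, on the transcript strand. ZEB1 held 6 and 3 of them in 2549 bases, or 3.53 per kilobase, and ZEB2 5 and 4 in 5370 bases, or 1.68 per kilobase. Of 19113 genes, 28.2% held at least 1 match, 0.581% at least 5 and 0.0314% at least 9, the number in each ZEB gene. SNAI2 and GRHL2 held 1 match each and ESRP1 2, while SNAI1, TWIST1, TWIST2, OVOL1, OVOL2 and CDH1 held none. A match describes letters and is no measured site. The first match to each seed in both genes is given, with the match in capitals.
ZEB1, chr10:31527624-31527648, plus strand: ttatcttatCAGTATTatcactctt
ZEB1, chr10:31528037-31528061, plus strand: catcagaatCAGTGTTtgtgattgt
ZEB2, chr2:144389044-144389068, minus strand: accatacatCAGTATTtttattatt
ZEB2, chr2:144389228-144389252, minus strand: aattttgtaCAGTGTTaaggcctaa

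**Figure D5:**
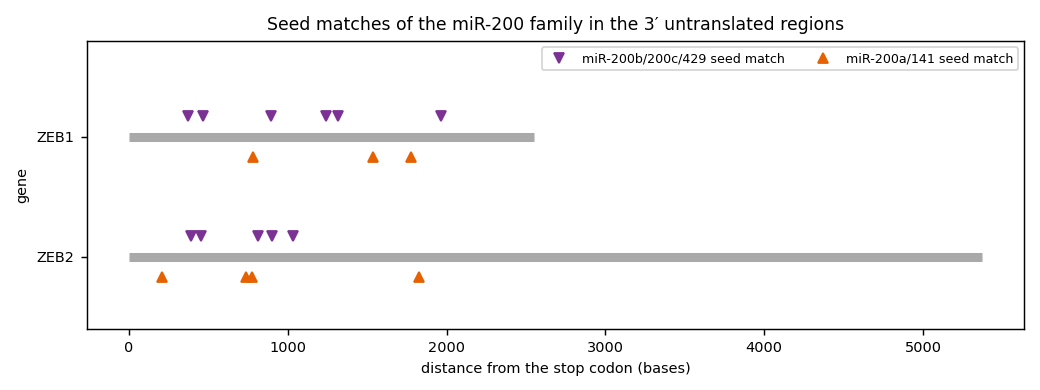
Positions of miR-200 family seed matches along the 3′ untranslated regions of ZEB1 and ZEB2, in bases from the stop codon; grey bars show the length of each region. The 9 matches of ZEB1 start 369 to 1964 bases into a region of 2549 bases, and the 9 of ZEB2 start 208 to 1825 bases into one of 5370 bases.

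The other arm, E-boxes bound by SNAI and ZEB proteins, was read in the 250 bases before transcription starts (RefSeq, GRCh38.p14). The letters searched were CACCTG on either strand, which appears as CAGGTG on the other. At least 1 match stood in 17.5% of 35116 such windows. Windows of 26 of the 45 epithelial targets were used, and 20 of their 36 windows, of 18 genes, held a match (55.6%). The list was drawn up as targets of such proteins among others, so a higher share was partly built into it and is no result of these data. Windows of 1 gene can also overlap and share matches. Among the 10 members 9 windows were used, of TWIST2, ZEB1 and ZEB2, and most of the 9 were of ZEB1. A match stood in 2 of the 9 (22.2%, near the 17.5% of all windows), each of them of ZEB1. The CRB3 window, of a polarity gene that fell by 2.45 ± 0.14 from H1 to HPCs (limma adjusted p 1.26e-08), held 5 matches, where 0.0740% of windows held at least as many. CRB3 stood at 6.05 to 7.43 FPKM in H1, 1.77 to 3.01 FPKM in APLNR+ cells, 2.56 to 3.54 FPKM in HEPs and 0.292 to 0.453 FPKM in HPCs. It was picked for print after its matches were counted. The MIR200CHG window held 1 match, 78 bases before the start. Both windows are given with their matches in capitals.
CRB3, chr19:6464021-6464270, plus strand: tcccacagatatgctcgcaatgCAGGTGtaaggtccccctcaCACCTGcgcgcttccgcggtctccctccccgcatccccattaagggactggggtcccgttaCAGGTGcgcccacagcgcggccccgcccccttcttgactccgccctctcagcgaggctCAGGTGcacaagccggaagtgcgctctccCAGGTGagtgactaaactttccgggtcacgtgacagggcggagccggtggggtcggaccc
MIR200CHG, chr12:6962995-6963244, plus strand: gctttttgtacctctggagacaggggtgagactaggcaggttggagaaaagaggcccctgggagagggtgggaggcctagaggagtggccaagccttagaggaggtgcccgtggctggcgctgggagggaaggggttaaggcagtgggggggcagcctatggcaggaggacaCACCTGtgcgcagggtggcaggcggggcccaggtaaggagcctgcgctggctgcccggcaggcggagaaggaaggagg

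Markers of the stages moved with the members. The summed level of 10 markers of undifferentiated cells, led by POU5F1, was 2671 to 2783 FPKM in H1, 915 to 1008 in APLNR+ cells, 375 to 461 in HEPs and 178 to 208 in HPCs, falling stage by stage as the keeper sum did. The sum of 9 mesoderm markers was 22.3 to 29.7 FPKM in H1, 628 to 705 in APLNR+ cells, 621 to 776 in HEPs and 115 to 154 in HPCs, and that of 12 endothelium markers was 29.9 to 35.0 FPKM in H1, 73.0 to 87.3 in APLNR+ cells, 800 to 1053 in HEPs, where ZEB2 rose again, and 441 to 565 in HPCs. The sum of 12 blood markers was 1369 to 1522 FPKM in HPCs against 39.0 to 57.8 in HEPs. In APLNR+ cells the undifferentiated markers still summed to more than the mesoderm markers. The endoderm, trophoblast and ectoderm lists below each summed to less than the markers of a population's own stage. The 10 genes of definitive endoderm and gut summed to 8.98 to 10.2 FPKM in H1 and 58.6 to 62.4 in HEPs, above the blood markers there. Of the HEP sum SOX17, an endothelial gene too, made 20.6 to 28.6, and its step of 0.44 ± 0.13 from APLNR+ was not called. APOA1, CXCR4, HNF4A and CDX2 were raised on that step, by 2.31, 1.42, 1.03 and 1.03 (57.1% of 7 tested, against 12.5% of all genes). HNF4A and CDX2 reached the minimum only with the HEP libraries, so their rise was partly fixed by it. Trophoblast and amnion markers, 10 genes, summed to 3.93 to 11.1 FPKM over the 12 libraries, and 2 of them were listed at 0 in every H1 library. Within that sum KRT7 made 5.62 to 6.29 FPKM in H1 and fell to APLNR+, while GATA3 rose by 1.86 ± 0.16 and ISL1 by 1.59 ± 0.10 (limma adjusted p 1.02e-06 and 4.48e-08). GATA3 and ISL1 were at 1 FPKM in no H1 library, so their rise was partly fixed by the minimum. Neural and surface ectoderm markers, 8 genes, summed to 26.3 to 36.5 FPKM in APLNR+ cells, of which OTX2 made 25.8 to 35.9. The part of any of these cell types in the members' changes was not tested.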

How the data were processed

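H1 cells and 3 sorted populations derived from them were sequenced with an Illumina TruSeq RNA kit, with 3 libraries each. The deposited table holds FPKM per gene symbol, made by the authors. The submitters' processing notes name BWA, Bowtie, RSEM and hg19, with roles and versions not given in the sources used here. FPKM keep no absolute depth, and relative depth was 0.555 to 1.27 of CD43+ replicate 3. Of 58365 lines, 1 text line was left out, and for 345 symbols on more than 1 line, none of them a member, the line of highest mean was kept.

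Values were taken as log2(FPKM + 1). Genes at 1 FPKM or more in at least 3 libraries (14840) were fitted with limma 3.58.1 in R 4.3.3, with a trended variance, over all 12 libraries. P-values were adjusted by Benjamini-Hochberg over all tested genes, and a call needed an adjusted p under 0.05 and a 2-fold change. Within-library ratios were compared by exact two-sided permutation. The steps were tested on simulated data. Python 3.11.15, pandas 2.3.3 and scipy 1.17.1 served for the rest. Beside the members and CDH1, at most the 3 called genes of largest absolute log2 change per list and comparison were named, and the 3 tested genes of highest Pearson correlation with each tested member, of which 1 is not reported here. The members and gene lists were chosen with earlier results of these data known. Alternatives covered the pseudocount, the low-value minimum, the scaling, the replicate block, the variance model and each library left out. Reference sequences came from GENCODE 29 and RefSeq on GRCh38, a build other than that of the table, so no gene coordinates were joined to the levels.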

Additional observations from a re-analysis of the deposited data

How the results depend on the processing

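Of 525 recomputed member changes 499 kept their direction and their side of the threshold, 3 lost the call, 20 gained one and 3 turned sign. With a pseudocount of 0.1, 4 members were lowered from H1 to APLNR+ (2 in the report), 5 were lowered from HEPs to HPCs (2 in the report) and 4 were raised from H1 to HPCs (2 in the report). With no minimum change these counts were 4, 6 and 4. A smaller pseudocount enlarges the changes of low genes by its construction. The change of OVOL1 from APLNR+ to HEPs, which did not pass the test, turned to 0.037 under quantile normalization and ranged from -0.14 to 0.028 when single libraries were left out (0.023 without APLNR+ replicate 2, 0.028 without HEP replicate 1). The 3 lost calls were those of SNAI1 from APLNR+ to HEPs, at -0.97 under quantile normalization, -0.88 without HEP replicate 1 and -0.95 with replicates 2 and 3 of each population alone, a setting chosen after seeing the data. The cause was not tested. With a pseudocount of 0.1 the change of the ZEB2 over ZEB1 log2 ratio from H1 to APLNR+ was 2.32, and those of SNAI1 over SNAI2 were -2.02, 0.99 and -0.95 over the 3 steps. The ZEB2 over ZEB1 change from HEPs to HPCs, -0.014 in the report, ranged from -0.16 to 0.11 when single libraries were left out.

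The labels do not say what a replicate number marks. Of 18 same-number pairs of libraries 12 had deviations that correlated above 0.1, with a range of -0.021 to 0.429. Pairs of replicate 1, the shallowest library of each population, all correlated, at 0.196 to 0.429, and the source of this likeness was not tested. As 6 of the 12 libraries correlated best with their own number, the numbers were not taken as pairs in the main fit. With the replicate number as a block, all 50 recomputed values kept their call, count or size. Each population holds each replicate number, so a block leaves the log2 and ratio changes as they were, SNAI1 from H1 to APLNR+ at 2.59 included. Only the adjusted p-values, and the calls and counts that rest on them, could have moved. FPKM give no absolute depth, and with 3 libraries a population the exact tests could not go below 0.1.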
